A study of Oryza sativa with 10 samples.

Results

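The plasma membrane intrinsic proteins (PIPs) are the aquaporins of the plant cell surface, and 10 rice PIP genes were followed here through early seed growth. They were taken by locus identifier, with 3 genes of the PIP1 group and 7 of the PIP2 group among the 55801 features counted in every library. Names are written as in RefSeq, so that PIP1-1 is the gene also written with a semicolon between its last digits. The 10 loci are PIP1-1 (LOC_Os02g44630), PIP1-2 (LOC_Os04g47220), PIP1-3 (LOC_Os02g57720), PIP2-1 (LOC_Os07g26690), PIP2-2 (LOC_Os02g41860), PIP2-3 (LOC_Os04g44060), PIP2-4 (LOC_Os07g26630), PIP2-5 (LOC_Os07g26660), PIP2-6 (LOC_Os04g16450) and PIP2-7 (LOC_Os09g36930). All 10 names stand in the RefSeq gene table on the chromosome that the identifier gives and in the same order along it. PIP2-4, PIP2-5 and PIP2-1 form a cluster on chromosome 7, with 1 RefSeq gene between PIP2-4 and PIP2-5 and 0 between PIP2-5 and PIP2-1.

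Aquaporins are membrane channels that let water, and in some members other small molecules, cross a membrane down its gradient. The PIP1 and PIP2 groups differ in their ends and in their behaviour. In maize, PIP2 proteins reach the plasma membrane and conduct water on their own, while PIP1 proteins need a PIP2 partner to leave the endoplasmic reticulum, and the partners assemble into mixed tetramers. In a young cereal seed such channels serve tissues that are expanding and that receive water with sucrose from the mother plant.

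RNA came from developing seeds with the husk removed, collected 72 and 48 hours after fertilization (HAF), the interval in which rice endosperm goes from free nuclei to walled cells. Each of 5 genotypes gave 1 library at each time, 10 libraries in all. They are line OE78-8, labelled as overexpressing the type I MADS-box gene MADS78 (here OE78), line OE79-3, labelled as overexpressing MADS79 (OE79), the CRISPR line Cr78_8.22.2 edited at MADS78 (CR78), the CRISPR line Cr79_11.25.3 edited at MADS79 (CR79), and wild type (WT). Each manipulation is thus represented by 1 line, with no information here on the cultivar, the promoter of the transgenes or the number of plants pooled. MADS78 (LOC_Os09g02830) had 2116 reads in OE78 at 72 HAF and 0 to 6 in every other library, with 6 in OE78 at 48 HAF against 3 in WT. MADS79 (LOC_Os01g74440) had 7 and 39 reads at 72 and 48 HAF in the libraries labelled OE79, against 20 and 33 in WT, so its reads were not raised there. Counts at the locus would miss a transgene that lacks the counted region, and they do not show an edit in a CRISPR line. OE78, OE79, CR78 and CR79 below therefore name libraries by their labels.

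Library totals ran from 12267337 reads in CR79 at 72 HAF to 18040600 in WT at 72 HAF. A pair of libraries stood apart. In CR79 at 72 HAF the 50 most abundant genes took 15.1% of the reads, against 6.8% to 9.28% elsewhere, and in CR78 at 48 HAF the heat shock chaperone gene HSP101 (LOC_Os05g44340) stood at 143 CPM, against 9.68 to 18.3 CPM elsewhere. CPM is the read count scaled to library size, with TMM factors that balance library composition. The values are not divided by gene length, so they are compared between libraries and not between genes. A gene was called changed at an adjusted p under 0.05 in edgeR's quasi-likelihood test, adjusted by Benjamini-Hochberg over all tested genes. All 10 PIP loci passed the low-count filter and were tested, with 25354 genes in the fit of time and genotype. Error in that fit is how far single genotypes stray from their shared change with time, as there was 1 library for each genotype and time. Libraries of whole seeds cannot tell fewer cells of a type from less RNA per cell.

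**Figure D1:**
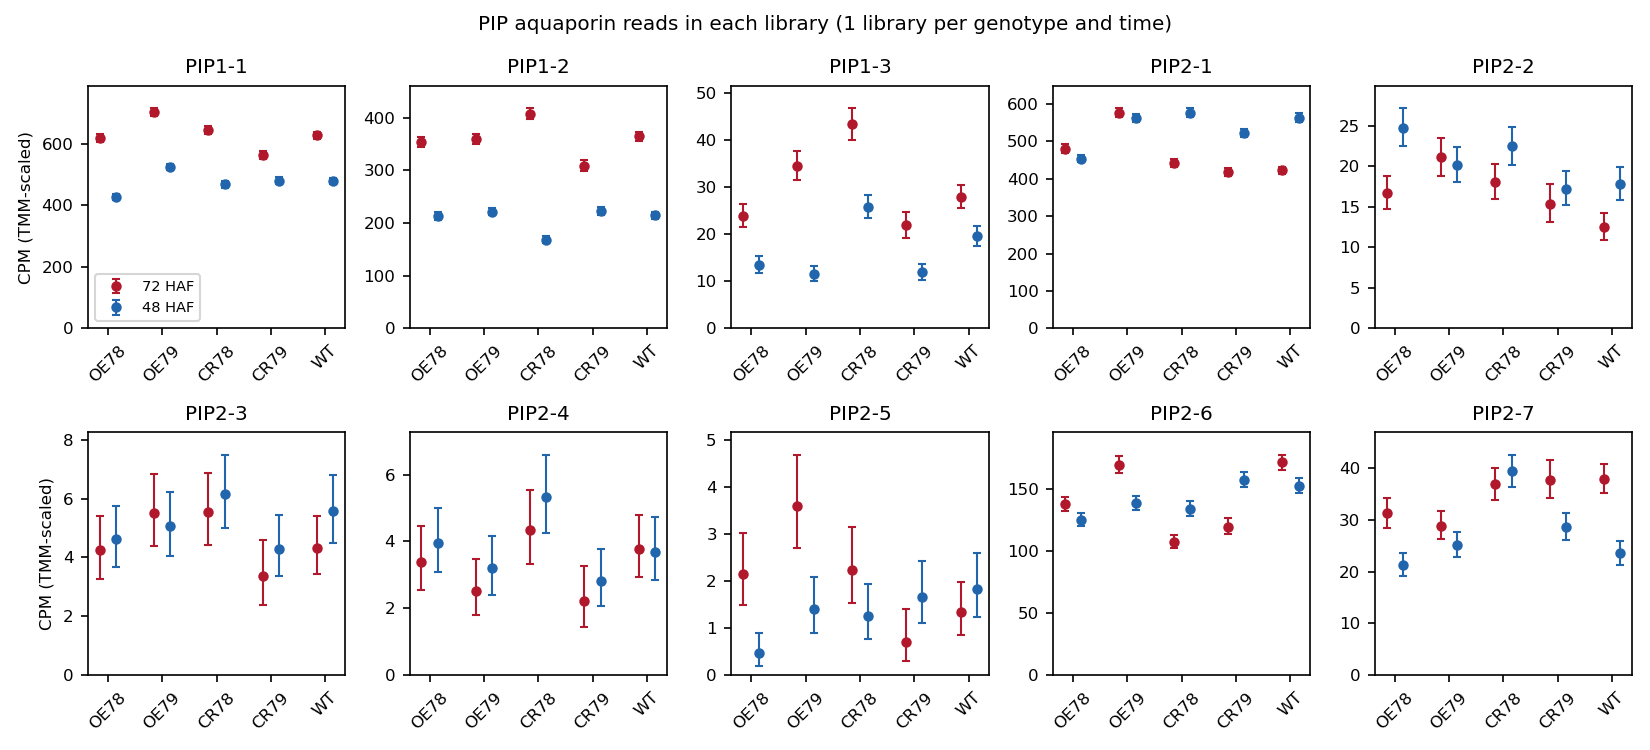
CPM of each PIP gene in the 10 libraries, with 72 HAF in red to the left of 48 HAF in blue for every genotype. Bars are exact 95% Poisson intervals and cover counting error only. PIP1-1 and PIP1-2 at 72 HAF lie above every 48 HAF library, while the PIP2 genes overlap between the times.

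All 3 PIP1 genes rose between 48 and 72 HAF, and none of the 7 PIP2 genes passed the test in either direction. Of all tested genes, 28.1% were called in this comparison, 15.2% higher and 12.9% lower at 72 HAF. Over the whole family 3 of 10 PIP genes were called, which is near that share and not a result about the family. The median log2 fold change was 0.79 over the PIP1 genes and -0.17 over the PIP2 genes, beside -0.02 over all tested genes. Whether the groups differ from each other was not tested.

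PIP1-1, also known in rice as RWC1, stood at 619, 703, 644 and 564 CPM at 72 HAF in OE78, OE79, CR78 and CR79 and at 628 CPM in WT. At 48 HAF it stood at 429, 525, 468 and 481 CPM in those lines and at 479.7 CPM in WT. The lowest 72 HAF library was thus above the highest 48 HAF library. Such a gap upward, without overlap of the times, was found in 2 of the 10 PIP genes, PIP1-1 and PIP1-2, and in 10.6% of all tested genes. The reverse was found in 0 PIP genes and in 7.88% of all tested genes. PIP1-1 averaged 632 ± 50.1 CPM at 72 HAF and 476 ± 34.3 CPM at 48 HAF (SD, n = 5 genotypes each). The common change was 1.33-fold (log2 fold change 0.41, SE 0.0873, edgeR adjusted p = 0.0103). In single genotypes it ran from 1.17-fold in CR79 to 1.44-fold in OE78, with 1.31-fold in WT.

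PIP1-2, studied in rice leaves for the passage of carbon dioxide, stood at 353, 359, 408 and 309 CPM at 72 HAF in OE78, OE79, CR78 and CR79 and at 364 CPM in WT. Its 48 HAF values were 213, 222, 168 and 223 CPM in those lines and 214 CPM in WT. The times again did not overlap. The mean was 358 ± 35.2 CPM at 72 HAF and 208 ± 22.6 CPM at 48 HAF (SD, n = 5 genotypes each), and the common change was 1.72-fold (log2 fold change 0.79, SE 0.119, edgeR adjusted p = 0.00216). The CR78 libraries held both extremes, the highest value at 72 HAF and the lowest at 48 HAF, a 2.42-fold difference, while the other genotypes lay between 1.39-fold and 1.70-fold. CR78 at 48 HAF is the library with the high HSP101 level. Without that library PIP1-2 still passed the test, and its log2 fold change lay between 0.66 and 0.87 when each of the 10 libraries was left out in turn. All 3 PIP1 genes also passed with both libraries that stood apart left out.

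PIP1-3, known as RWC3 and linked to drought avoidance in upland rice, had 195 to 640 reads per library. At 72 HAF it stood at 23.9, 34.5, 43.3 and 21.9 CPM in OE78, OE79, CR78 and CR79 and at 27.9 CPM in WT. At 48 HAF it stood at 13.5, 11.6, 25.8 and 11.99 CPM in those lines and at 19.6 CPM in WT. The times overlapped, because CR78 was the highest library at both times, but each genotype was higher at 72 than at 48 HAF. Its mean was 30.3 ± 8.71 CPM at 72 HAF and 16.5 ± 6.125 CPM at 48 HAF (SD, n = 5 genotypes each). Of the PIP genes, the 3 PIP1 genes were higher at 72 HAF in 5 of 5 genotypes, as were 19.3% of all tested genes. None of the 10 was lower in 5 of 5, as were 18.3% of all tested genes. The common change was 1.87-fold (log2 fold change 0.90, SE 0.149, edgeR adjusted p = 0.0033), with 2.98-fold in OE79 and 1.43-fold in WT as the extremes.

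Markers of seed parts and of the anther were read over the same interval. All 4 endosperm markers rose, with a summed level of 89.3 to 793 CPM at 72 HAF and 1.23 to 16.6 CPM at 48 HAF, and the starch synthase gene Wx (LOC_Os06g04200) had 0 to 5 reads in any 48 HAF library. All 4 markers of the green pericarp rose too, with a summed level of 4484 to 5936 CPM at 72 HAF and 2139 to 3750 CPM at 48 HAF. Of 3 anther and tapetum markers, 2 were tested and 1, GAMYB (LOC_Os01g59660), fell. UDT1 (LOC_Os07g36460) did not pass (log2 fold change 0.09, edgeR adjusted p = 0.801), so the fall rests on 1 gene. The summed level of the 3 markers was 31.0 to 40.8 CPM at 72 HAF and 38.2 to 52.0 CPM at 48 HAF. Most of it was GAMYB, at 27.2 to 37.3 CPM and 35.1 to 48.6 CPM, so the sum mainly follows that gene. TDR (LOC_Os02g02820), a regulator of the tapetum, had 0 reads in 6 of 10 libraries and at most 5 in the rest. The part of any shift in tissue makeup in the PIP1 rise was not tested.

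PIP2-1, a member of the chromosome 7 cluster, had 4731 to 9693 reads per library. It stood at 481, 576, 443 and 418 CPM at 72 HAF in OE78, OE79, CR78 and CR79 and at 422 CPM in WT. At 48 HAF the lines had 454, 563, 577 and 522 CPM and WT had 564 CPM. The genotypes did not move alike: the 72 HAF level was 0.767, 0.801 and 0.749 times the 48 HAF level in CR78, CR79 and WT, and 1.06 and 1.02 times in OE78 and OE79. The common change did not pass (log2 fold change -0.20, SE 0.108, edgeR adjusted p = 0.202). The difference in change between overexpression and CRISPR lines did not pass either (log2 difference 0.41, edgeR adjusted p = 0.657).

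PIP2-6, which in rice is known to carry arsenite as well as water, had the lowest p of the 10 PIP genes in the test of class by time. At 72 HAF it stood at 138 and 169 CPM in OE78 and OE79, at 107 and 119 CPM in CR78 and CR79 and at 171 CPM in WT. At 48 HAF it stood at 125 and 138 CPM in OE78 and OE79, at 134 and 157 CPM in CR78 and CR79 and at 152 CPM in WT. The 72 HAF level was thus 1.104, 1.22 and 1.12 times the 48 HAF level in OE78, OE79 and WT, and 0.799 and 0.761 times in CR78 and CR79. Each of these ratios had a 95% counting interval that left out 1, and each line stands on 1 library a time. The test of overexpression against CRISPR lines in their change over time gave a log2 difference of 0.59 (SE 0.223, unadjusted p = 0.0275, edgeR adjusted p = 0.429), so the split did not pass over all genes. Of 26632 genes in that fit, 0.0225% were called and 2590 had an unadjusted p under 0.05. The fit had no term for the line, so the 48 and 72 HAF libraries of a line were not paired in it. An alternative fit with the line as a term pairs them and called far more genes, but PIP2-6 did not pass in it either. Over 16 alternatives, this fit among them, the log2 difference lay between 0.43 and 0.77. The common time effect of PIP2-6 was close to 0 (log2 fold change -0.02, edgeR adjusted p = 0.909), and its sign turned when any 1 CRISPR library was left out.

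PIP2-7, linked to chilling tolerance in rice, stood at 31.2, 28.9, 36.9 and 37.8 CPM at 72 HAF in OE78, OE79, CR78 and CR79 and at 37.9 CPM in WT. At 48 HAF it stood at 21.3, 25.2, 39.4 and 28.65 CPM in those lines and at 23.6 CPM in WT. Of the 5 genotypes 4 were higher at 72 HAF, and CR78, whose 48 HAF library was the highest of all 10, was not. The common change of 1.27-fold missed the threshold (log2 fold change 0.35, SE 0.122, edgeR adjusted p = 0.0657). It passed without the CR78 48 HAF library (adjusted p = 0.035) and without the CR78 72 HAF library (adjusted p = 0.0342). The part of the heat shock state of the CR78 48 HAF library in this was not tested.

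PIP2-2 stood at 16.6, 21.1, 17.998 and 15.3 CPM at 72 HAF in OE78, OE79, CR78 and CR79 and at 12.5 CPM in WT, and at 24.7, 20.2, 22.4 and 17.2 CPM at 48 HAF in those lines and 17.8 CPM in WT. The values overlapped between the times, and the common change did not pass (log2 fold change -0.30, SE 0.119, edgeR adjusted p = 0.093). PIP2-3, PIP2-4 and PIP2-5 had few reads. PIP2-3 ranged from 3.36 to 5.55 CPM at 72 HAF and from 4.30 to 6.16 CPM at 48 HAF, and PIP2-4 from 2.21 to 4.33 CPM at 72 HAF and from 2.83 to 5.34 CPM at 48 HAF. Neither passed the test of time (edgeR adjusted p = 0.482 for PIP2-3 and 0.385 for PIP2-4). PIP2-3 and PIP2-5 are known in rice as genes expressed mainly in roots.

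PIP2-5 had 8 to 54 reads per library. Its level at 72 HAF was 2.15, 3.59, 2.23 and 0.707 CPM in OE78, OE79, CR78 and CR79 and 1.33 CPM in WT, and its level at 48 HAF was 0.458, 1.39, 1.26 and 1.66 CPM in those lines and 1.82 CPM in WT. The genotypes were split, 3 higher and 2 lower at 72 HAF, and the common change did not pass (log2 fold change 0.57, SE 0.485, edgeR adjusted p = 0.42). The ratio of 72 to 48 HAF was 4.71 in OE78, with a 95% counting interval of 2.13 to 11.8, and 0.426 in CR79, with an interval of 0.167 to 0.963. Neighbouring PIP genes are close copies, so reads shared between them could be split or lost in the counting, whose handling of them is not known here.

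**Figure D2:**
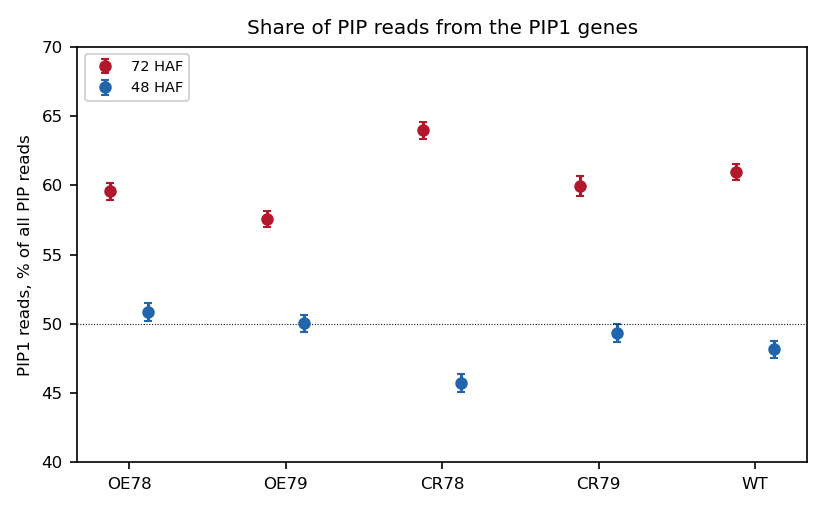
Share of all PIP reads that came from the PIP1 genes in each library, in percent, with 72 HAF in red to the left of 48 HAF in blue. Bars are exact 95% binomial intervals for counting error, and the dotted line marks 50%. The share lies between 57.6% and 64.0% at 72 HAF and between 45.7% and 50.8% at 48 HAF.

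The balance between the groups was read within each library, which makes it independent of the scaling between libraries. PIP1 genes gave 59.6%, 57.6%, 64.0% and 60.0% of the PIP reads at 72 HAF in OE78, OE79, CR78 and CR79 and 61.0% in WT. At 48 HAF they gave 50.8%, 50.1%, 45.7% and 49.4% in those lines and 48.2% in WT. The share was therefore higher at 72 HAF in 5 of 5 genotypes, by 7.53 percentage points in OE79 up to 18.2 in CR78, with 12.8 in WT. Such a share shows unequal change and not which group moved. It mostly follows PIP1-1, PIP1-2, PIP2-1 and PIP2-6 and says little of the other genes. In WT at 72 HAF, PIP1-1 had 11312 and PIP1-2 6565 of 18380 PIP1 reads. PIP2-1 had 7605 and PIP2-6 3086 of 11769 PIP2 reads there. Reads are not divided by gene length, so 50% does not mark equal amounts of transcript. PIP1-1 alone gave 1.22 to 1.49 times the reads of PIP2-1 at 72 HAF and 0.811 to 0.945 times at 48 HAF. The 10 genes together took 0.138% to 0.187% of all reads at 72 HAF and 0.141% to 0.156% at 48 HAF, so the whole family overlapped between the times. The overlap came from CR79 at 72 HAF alone, a library that stood apart, since the other 72 HAF libraries had 0.162% to 0.187%, above each 48 HAF library. No test was run on these sums, because the direction follows from their members.

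**Figure D3:**
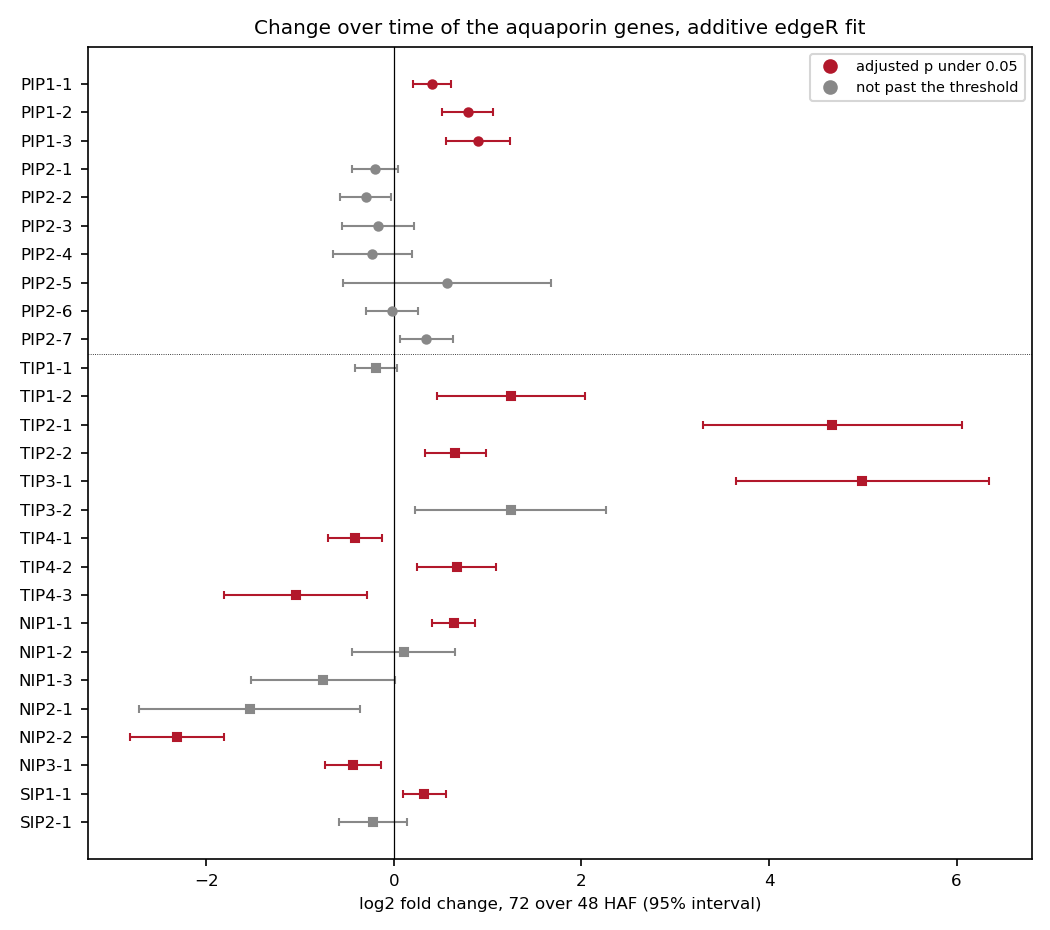
Log2 fold change of 72 over 48 HAF for the 10 PIP genes (circles, above the dotted line) and the 17 other tested aquaporin genes (squares), with 95% intervals from the additive edgeR fit. Red marks an adjusted p under 0.05. The 3 PIP1 genes lie to the right of 0, and the changes ran from -1.05 to 5.00 among TIP genes, from -2.31 to 0.64 among NIP genes and from -0.22 to 0.32 among SIP genes.

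The other aquaporin subfamilies give the background for these changes. Tonoplast intrinsic proteins (TIPs) serve the vacuole, NOD26-like intrinsic proteins (NIPs) carry small uncharged solutes, and small basic intrinsic proteins (SIPs) lie in the endoplasmic reticulum in Arabidopsis. Of 22 other aquaporin genes 17 were tested, of which 7 rose, 4 fell and 6 did not pass, with a median log2 fold change of 0.11. Of all tested genes 28.1% were called, 15.2% higher and 12.9% lower. Among 10 TIP genes, 9 were tested, 5 rose and 2 fell. Of 9 NIP genes 6 were tested, 1 rose and 2 fell, and of 2 SIP genes 1 rose. PIP2-8 (LOC_Os03g64330), a further PIP gene, had at most 1 read in any library and was not tested.

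Among these other aquaporins the smallest adjusted p for time belonged to NIP2-2, TIP3-1, TIP2-1 and NIP1-1. NIP2-2 (LOC_Os06g12310), the silicon transporter Lsi6 of leaves and nodes, fell to 0.883 to 3.06 CPM at 72 HAF, against 7.99 to 17.1 CPM at 48 HAF (log2 fold change -2.31, SE 0.219, edgeR adjusted p = 0.000238). TIP3-1 (LOC_Os10g35050), an aquaporin of the seed vacuole, had 0 to 128 reads at 72 HAF and 0 to 10 at 48 HAF (edgeR adjusted p = 0.000959). TIP2-1 (LOC_Os02g44080), known in rice as a root gene, had 13 to 39 reads at 72 HAF and 0 to 3 at 48 HAF (edgeR adjusted p = 0.001). NIP1-1 (LOC_Os02g13870) rose in each genotype, to 657 to 797 CPM at 72 HAF, against 449 to 518 CPM at 48 HAF (log2 fold change 0.64, SE 0.0996, edgeR adjusted p = 0.00247). TIP1-2 (LOC_Os01g74450), whose locus number follows that of MADS79, had 21 to 45 reads at 72 HAF and 7 to 36 at 48 HAF (log2 fold change 1.25, edgeR adjusted p = 0.0285). That call was lost in 8 of 16 alternatives, with adjusted p up to 0.096, among them leaving out either library of WT, OE79 or CR78.

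**Figure D4:**
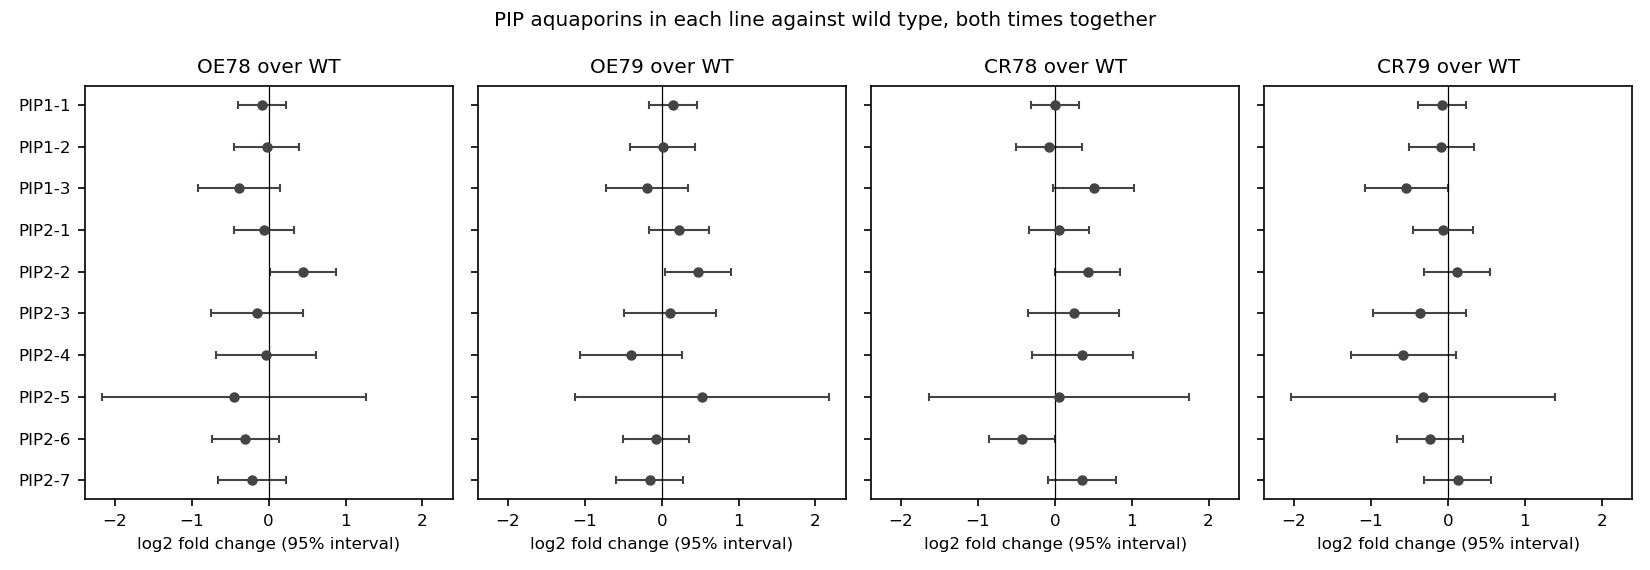
Log2 fold change of each line over WT for the 10 PIP genes, both times together, with 95% intervals from the additive edgeR fit. All 4 panels share the WT libraries. No gene passed the adjusted threshold in any panel, and intervals are widest for PIP2-5.

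No PIP gene differed between the genotypes by the test over all 5 (edgeR, 0 of 10 called and 1 at an unadjusted p under 0.05). Of the 25354 tested genes, 0.536% were called in it and 3885 had an unadjusted p under 0.05. The 1 gene was PIP1-3 (unadjusted p = 0.0116, edgeR adjusted p = 0.2), with CR78 above the other genotypes at both times. DESeq2 called it at an adjusted p of 0.027, in a test that called 1273 genes, against 136 by edgeR. Its fitted level in CR78 was 1.42 times that of WT, with a 95% interval of 0.986 to 2.05, and in CR79 0.689 times, with an interval of 0.475 to 0.9999.

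The lines were then set against WT one by one, in comparisons that share the WT libraries. None of the 10 PIP genes passed by edgeR or by DESeq2. By edgeR, 0.142% of all tested genes were called for OE78, 0.154% for OE79, 0.0749% for CR78 and 2.19% for CR79. An unadjusted p under 0.05 was reached by 1 PIP gene in each of OE78, OE79 and CR79 and by 0 in CR78. In OE78 and in OE79 that gene was PIP2-2, at 1.36 and 1.39 times WT (edgeR adjusted p = 0.998 and adjusted p = 1.0). WT was the lowest of the 5 genotypes for PIP2-2 at 72 HAF but not at 48 HAF. For PIP1-1, PIP1-2, PIP2-1 and PIP2-6, the genes with the most reads, the 95% intervals of the fold over WT lay within 0.601 to 1.32 for OE78, 0.705 to 1.53 for OE79, 0.551 to 1.36 for CR78 and 0.632 to 1.27 for CR79. A larger difference from WT that is shared by both times lies outside these intervals, in which the 2 times of a line stand in for replicates. They do not bound a difference at 1 time, and each manipulation is 1 line. For PIP2-5 the intervals reached from 0.222 to 4.53 over the 4 lines.

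Overexpression lines against CRISPR lines gave 0 of 10 PIP genes by edgeR and by DESeq2, with 0.572% of all tested genes called by edgeR. An unadjusted p under 0.05 was reached by 4581 of 25354 tested genes and by 1 PIP gene. It was PIP2-7, lower in the overexpression lines by 0.43 on the log2 scale (fold 0.743, SE 0.136, edgeR adjusted p = 0.164). The change over time gave no PIP gene between the classes by edgeR or DESeq2. PIP2-6 was the 1 PIP gene at an unadjusted p under 0.05, a level reached by 2590 of 26632 genes in that fit.

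At a single time each line and WT are 1 library each, so a count past 1.5-fold carries no test. At 48 HAF, 1 of 10 PIP genes was past that fold in each line, and of all tested genes OE78 had 21.8% past it, OE79 16.7%, CR78 15.7% and CR79 32.2%. These were PIP2-5, lower in OE78, PIP1-3, lower in OE79 and CR79, and PIP2-7, higher in CR78. At 72 HAF the number was 1 in OE78 (PIP2-5, higher, beside 21.5% of all genes) and 2 in OE79 (PIP2-2 and PIP2-5, higher, beside 21.9%). In CR78 it was 3 (PIP1-3 and PIP2-5 higher and PIP2-6 lower, beside 24.9%) and in CR79 2 (PIP2-4 and PIP2-5, lower, beside 33.0%). With 1 to 3 of 10 in each pair, beside 15.7% to 33.0% of all tested genes, these counts are not a result about the PIP genes. PIP2-6 at 72 HAF was 0.625 times WT in CR78, with a 95% counting interval of 0.588 to 0.664. It was 0.697 times WT in CR79, with an interval of 0.654 to 0.744, 0.804 times in OE78 and 0.989 times in OE79. WT at 72 HAF was the highest of the 10 libraries for this gene, at 171 CPM. Each ratio rests on 1 library a side, and the intervals cover counting error only.

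Across the 10 libraries the PIP genes did not follow 1 pattern. Pearson's r of log2 CPM was 0.91 between PIP1-1 and PIP1-2, 0.731 between PIP1-1 and PIP1-3, and 0.666 between PIP1-2 and PIP1-3. PIP2-1 had r = -0.549 with PIP1-2 and -0.218 with PIP1-1. These values describe libraries that share 2 times and 5 genotypes. For each PIP gene with a mean of at least 5 CPM, the 2 nearest were taken from the 17450 tested genes with such a mean. PIP2-3, PIP2-4 and PIP2-5 lay below it and were not searched. None of the nearest genes was a PIP gene. Each r is the top of a search over many genes in 10 libraries, so this is not a result about the family. The first and second nearest to PIP1-1 were LOC_Os04g45090 (r = 0.99) and LOC_Os01g01450 (r = 0.972), and to PIP1-2 LOC_Os04g41970 (r = 0.981) and LOC_Os07g17300 (r = 0.978). To PIP1-3 they were LOC_Os01g01312 (r = 0.953) and LOC_Os12g05640 (r = 0.942), and to PIP2-1 LOC_Os02g44880 (r = 0.962) and LOC_Os12g06780 (r = 0.949). To PIP2-2 they were LOC_Os02g19130 (r = 0.908) and LOC_Os08g06100 (r = 0.894). To PIP2-6 they were LOC_Os01g44110 (r = 0.898) and LOC_Os03g13930 (r = 0.879), and to PIP2-7 LOC_Os03g01750 (r = 0.966) and LOC_Os10g05230 (r = 0.923).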

How the data were processed

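RNA of rice seeds was read in 10 libraries, 1 for each of 5 genotypes at 72 and 48 HAF. The deposited values are raw counts of reads at each gene. TopHat2 and HTSeq are named, without versions, per the submitters' processing notes, while the build, annotation release, strand setting and treatment of multiply matching reads were not given in the sources used here. Library totals lay between 12267337 and 18040600.

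Genes were kept with edgeR's low-count filter at a minimum count of 10, and libraries were scaled by TMM. Two-sided quasi-likelihood tests were run in edgeR 4.0.16 (R 4.3.3), and p-values were adjusted by Benjamini-Hochberg over every gene in a fit. A single additive model, genotype plus time, gave the effects of time, lines and classes with 4 residual degrees of freedom, and the change over time between classes from a fit of 1 mean per class and time. In the additive model both libraries of a line share its term, and their deviations from the time means had correlations of 0.065 to 0.328 within lines. The fit of 1 mean per class and time has no term for the line and so leaves out this pairing. The p-values measure only the spread between these libraries. Counting intervals are exact (Poisson, binomial, at 95%) and cover counting error only. DESeq2 1.42.0, other scalings, no filter and leaving out libraries were alternatives. For time in the additive model, leaving out either library of a line takes that line out of the effect. Such fits therefore give 1 check per genotype and not 1 per library.

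The members and lists were chosen with earlier results of these data known, and the 1.5-fold limit after the values were seen. Named are all 10 PIP loci, MADS78, MADS79, PIP2-8, TIP1-2, the other aquaporins with the smallest adjusted p past the threshold (up to 4 for time and up to 2 in each other comparison), and the 2 genes nearest to each PIP with a mean of at least 5 CPM, from log2 CPM with 0.5 added. Identifiers are not paired with names in the files. Of 22 other aquaporin names 19 stand in RefSeq (ASM3414082v1) on the right chromosome and in order, and 3 (TIP4-3, NIP1-3, NIP3-2) are missing from it. Markers were added to set tissue beside the results. HSP101, the 3 anther markers, 2 of 4 endosperm markers (Wx, NF-YB1) and 2 of 4 green pericarp markers (Cab1R, Cab2R) passed the same check. RPBF, RISBZ1, RBCS, RBCS2, MADS78 and MADS79 are missing from the table, and their identifiers were not checked. No coordinates or sequences are given.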

Additional observations from a re-analysis of the deposited data

How the results depend on the processing

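The rise of PIP1-1, PIP1-2 and PIP1-3 kept its direction and its call in each of 16 alternatives, with adjusted p up to 0.0499, 0.012 and 0.0236, and 3 to 4 PIP genes were called when 1 library was left out. Without CR78 48 or 72 HAF the added gene was PIP2-7. Leaving out either library of a line takes that line out of the time effect, so both fits make the same check. The time effect of PIP2-6 turned to 0.05, 0.05, 0.07 and 0.08 on the log2 scale without CR78 48, CR78 72, CR79 48 and CR79 72 HAF, and to 0.20 without both CR78 48 and CR79 72 HAF. Leaving out 1 library at a time gave -0.10 to 0.08. It passed in none of these, and the cause was not tested. In the other comparisons the count of PIP genes stayed 0 when any 1 library was left out, and DESeq2 gave 1 (PIP1-3) over the 5 genotypes. By plain library totals the PIP genes past 1.5-fold numbered 2 in OE78 at 48 HAF (1 by TMM), 3 in OE79 (2), 2 in CR78 (3) and 3 in CR79 (2) at 72 HAF, and kept their number in the other 4 pairs.

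Counts over all genes moved more. Without both CR78 48 and CR79 72 HAF they were 3807 for time (7114 in the fit of all libraries), 229 for any genotype difference (136), 72 in OE78 (36), 68 in OE79 (39), 107 in CR78 (19), 110 in CR79 (555) and 0 for the change over time between classes (6). Without the filter they were 808, 106, 85, 100 and 1059 for the genotype test and the lines in that order, 642 for overexpression against CRISPR (145) and 1003 for the change over time. By DESeq2 they were 1273, 131, 108, 94, 1212, 792 and 528. Leaving out 1 library gave 4340 to 5822 for time, 50 to 132 for the genotype test, 5 to 36 in OE78, 2 to 40 in OE79, 3 to 27 in CR78, 8 to 380 in CR79, 6 to 124 for overexpression against CRISPR and 0 to 164 for the change over time. With the line as a replicate block the change over time gave 1063 genes and 0 PIP genes. Without the block the time effect gave 3 PIP genes. The cause of these shifts was not tested. The counting error limits PIP2-3, PIP2-4 and PIP2-5, at 8 to 98 reads a library.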

Other observations

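TIP3-1 (LOC_Os10g35050), an aquaporin of the seed vacuole membrane, was the 1 gene of the wider family that separated the genotypes. It had 104 and 128 reads at 72 HAF in CR78 and CR79 and 8 and 11 in OE78 and OE79, against 0 in WT. At 48 HAF it had 1 and 10 reads in CR78 and CR79 and 0 in OE78, OE79 and WT. It passed for time (edgeR adjusted p = 0.000959), for any difference between the genotypes (edgeR adjusted p = 0.044), for CR79 against WT (edgeR adjusted p = 0.0209) and for overexpression against CRISPR lines (edgeR adjusted p = 0.0387). Since 48 HAF gave next to no reads, the differences between genotypes rest on 1 library each at 72 HAF. The call for CR79 against WT was lost without WT 48 HAF (adjusted p = 0.0742), WT 72 HAF (adjusted p = 0.308) or CR79 72 HAF (adjusted p = 0.052). The call for any difference was lost without any 1 library other than CR78 48 HAF and CR79 48 HAF, with edgeR adjusted p up to 0.164. The call for overexpression against CRISPR lines was lost without any 1 library other than those and WT 48 HAF, with edgeR adjusted p up to 0.495. The 4 endosperm markers were also highest in those libraries, with Wx at 652 CPM in CR78, 533 CPM in CR79, 36.8 and 77.3 CPM in OE78 and OE79, and 115 CPM in WT at 72 HAF. The part of endosperm stage in the TIP3-1 reads was not tested.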
